A study of Mus musculus with 28 samples.

Results

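Leukaemia inhibitory factor (LIF) is 1 of the factors added to the medium in which O9-1 cells, a line of cranial neural crest cells from mouse, are kept proliferating, and it was in no other medium of the study. The 7 genes described here belong to the signalling of LIF and related cytokines. They are the receptor subunits Lifr, Il6st and Osmr, the transcription factor Stat3, and the inhibitors Socs1, Socs2 and Socs3. They were chosen by symbol in the deposited table of read counts, without use of a threshold, and are 7 of the 54429 genes in it. All 7 passed the filter on low counts in every comparison.

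All 28 libraries came from polyadenylated RNA of this 1 line, so the groups differ in medium, culture time and oxygen and share their genotype. The proliferating groups were kept in medium conditioned by STO cells, a mouse fibroblast line used as a feeder, with 15% serum, 25 ng/ml basic FGF and 5 ng/ml LIF. The osteoblast groups spent 10 days in osteogenic medium with 10% serum, beta-glycerophosphate, 0.1 µM dexamethasone, a synthetic glucocorticoid, and 100 ng/ml BMP-2. The chondrocyte groups spent 3 days in that osteogenic medium, then 7 days as micromasses on matrigel with 5% serum, insulin-transferrin-selenium, 0.1 µM dexamethasone, 10 ng/ml TGF-beta3 and 50 ng/ml BMP-2. The smooth muscle groups spent 3 days in medium with 10% serum and no added growth factor. Each of these 4 cultures was kept at 21% O2 (4 libraries) or at 0.5% O2 (3 libraries). A differentiated group therefore differs from the proliferating one in LIF, basic FGF, conditioned medium, serum and time together, and their parts cannot be told apart. Nothing in the labels says whether replicates were separate cultures, so the p-values measure the spread between these libraries, which may be technical.

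LIF binds its receptor subunit LIFR, which pairs with gp130, the shared chain of the interleukin-6 family of cytokines encoded by Il6st. Kinases of the JAK family bound to these chains then phosphorylate STAT3, which moves to the nucleus and switches on target genes. Among those targets is Socs3, whose protein binds gp130 and shuts the signal off. OSMR pairs with gp130 to bind oncostatin M, while SOCS1 inhibits JAK kinases directly and SOCS2 is best known for restraining growth hormone signalling through STAT5. LIF keeps mouse embryonic stem cells undifferentiated through STAT3, and signals through gp130 also act on bone-forming cells.

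The libraries held 19.87 to 64.69 M counted reads (M, 1e+06 reads), with a median of 26.8 M. The 3 hypoxic smooth muscle libraries stood apart: mitochondrially encoded ribosomal RNA took 11.62 to 13.31% of their counts against at most 0.0889% in the other 25 libraries, and their composition (TMM) scaling factors were 0.505 to 0.533 against 0.901 to 1.29. Their summed level of 6 smooth muscle markers was 94.8 to 119 counts per 1e+06 (CPM), against 3530 to 3990 CPM in the normoxic smooth muscle libraries and 94.1 to 103 CPM in normoxic proliferating cells. The same sum was 3564 to 5103 CPM in normoxic osteoblast and 2071 to 2522 CPM in normoxic chondrocyte libraries. These markers therefore do not single out the smooth muscle cultures. The chondrocyte markers were highest in the chondrocyte groups. The osteoblast markers summed to 6710 to 15600 CPM in the osteoblast groups and to 38540 to 51720 CPM in the chondrocyte groups. Col1a1 made most of these sums. Its means were 38650 and 45680 CPM in normoxic and hypoxic chondrocyte libraries. In normoxic and hypoxic osteoblast libraries they were 6565 and 9757 CPM. The sums therefore do not show that the osteoblast markers as a set were higher in the chondrocyte groups. Bglap had a mean below 0.1 CPM in hypoxic chondrocyte libraries, but not in normoxic ones or in either osteoblast group. Of the 8 neural crest markers, Sox10 and Foxd3 had means below 0.1 CPM in all 8 groups. Summed hypoxia markers (8 genes) were 2551 to 4187 CPM in the hypoxic libraries and 232 to 1241 CPM in the normoxic ones, and their part in the oxygen results given here was not tested.

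Levels are given as CPM after composition scaling over all 28 libraries, and changes on the log2 scale, each with a standard error (SE), from edgeR's quasi-likelihood test of the 2 groups compared. A gene is said to have risen or fallen where its p-value, adjusted over all genes tested by the Benjamini-Hochberg method, was under 0.05. In bulk RNA, fewer cells that express a gene and less RNA of it per cell cannot be told apart.

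**Figure D1:**
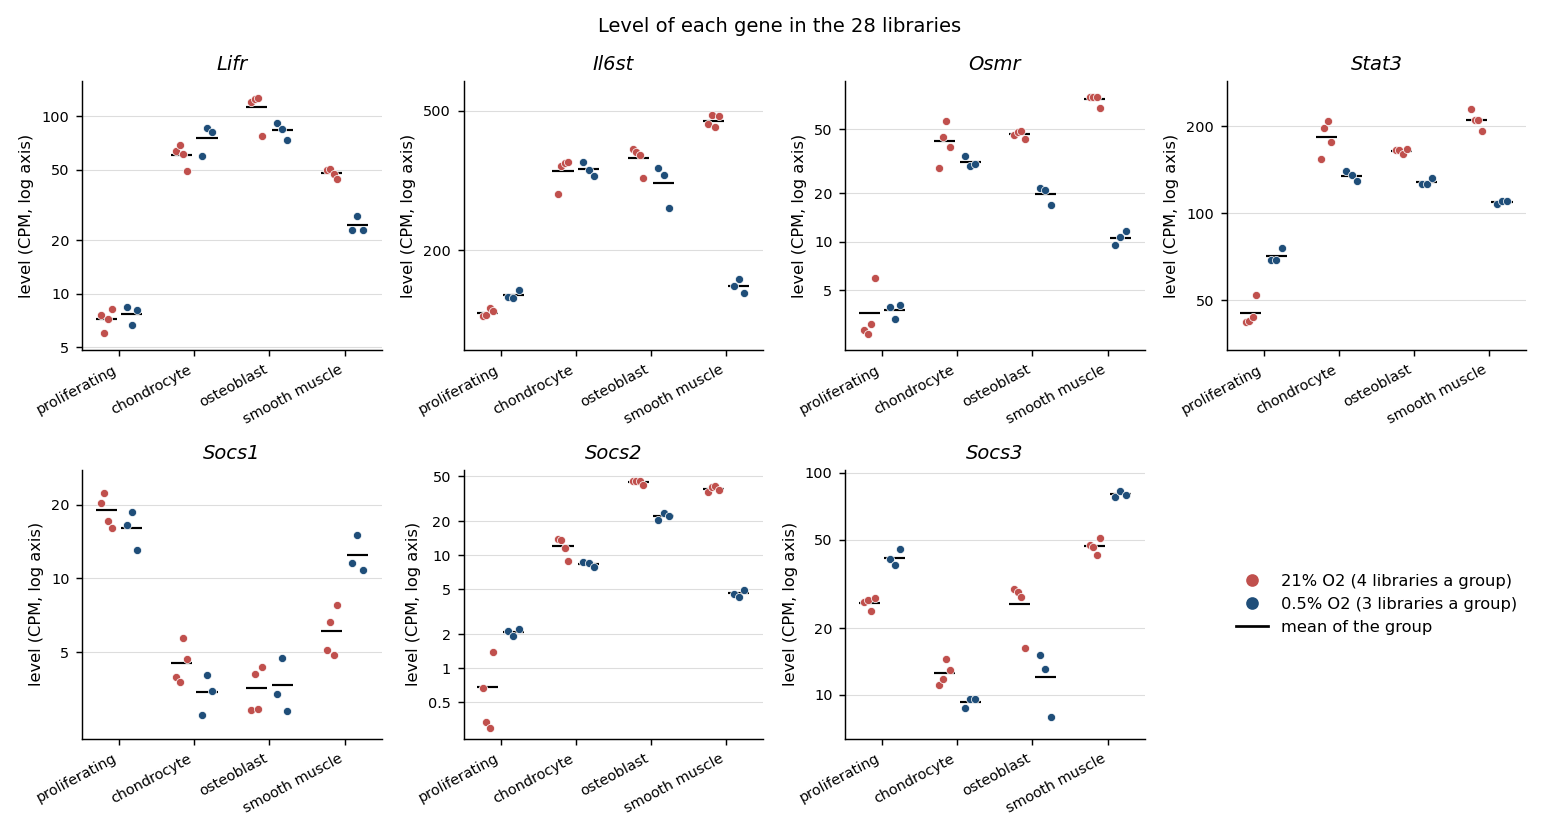
Level of each of the 7 genes in every library (CPM, log axis) for the 4 cultures at 21% O2 and 0.5% O2, with points for libraries and lines for group means. Lifr, Il6st, Osmr, Stat3 and Socs2 were lowest in proliferating cells and Socs1 was highest there, while Socs3 was highest in hypoxic smooth muscle libraries (77.3 to 82.4 CPM).

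Differentiated cultures had more RNA for the receptor chains and for Stat3 than proliferating cells, from which they differ in more than LIF. Lifr, Osmr, Stat3 and Socs2 rose in all 6 comparisons with proliferating cells, Il6st in 5 and, by a call that did not hold under every setting, in the sixth, Socs1 fell in 5 of 6, and Socs3 rose in 2 and fell in 3. The comparison of hypoxic smooth muscle libraries is the exception under another scaling: with library size alone Il6st, Stat3, Socs2 and Socs3 had log2 values of -1.07, -0.54, -0.03 and -0.21 there, as given in detail with the oxygen results. At 21% O2 the chondrocyte cultures had 5 of the 7 genes higher and 2 lower, beside 37.7% of 14360 tested genes higher and 37.2% lower. In the osteoblast cultures 5 were higher and 1 lower, beside 40.9% and 37.8% of all 14434 genes. The smooth muscle cultures had 6 higher and 1 lower, beside 40.8% and 38.9% of 14582 genes. At 0.5% O2 the counts were 5 higher and 2 lower in chondrocyte cultures (all genes 34.9% and 34.6%), 5 and 2 in osteoblast cultures (36.2% and 35.1%), and 6 and 0 in smooth muscle cultures (33.8% and 36.2%). The smooth muscle count became 1 higher and 3 lower with library size alone. Since more than 2 in 3 of all genes passed the test in these comparisons, being called sets no gene apart. The median log2 fold change of the 7 genes was 2.11, 1.93 and 2.28 at 21% O2 and 1.18, 1.06 and 1.06 at 0.5% O2 in chondrocyte, osteoblast and smooth muscle cultures, while the median over all genes lay between -0.07 and 0.07.

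**Figure D2:**
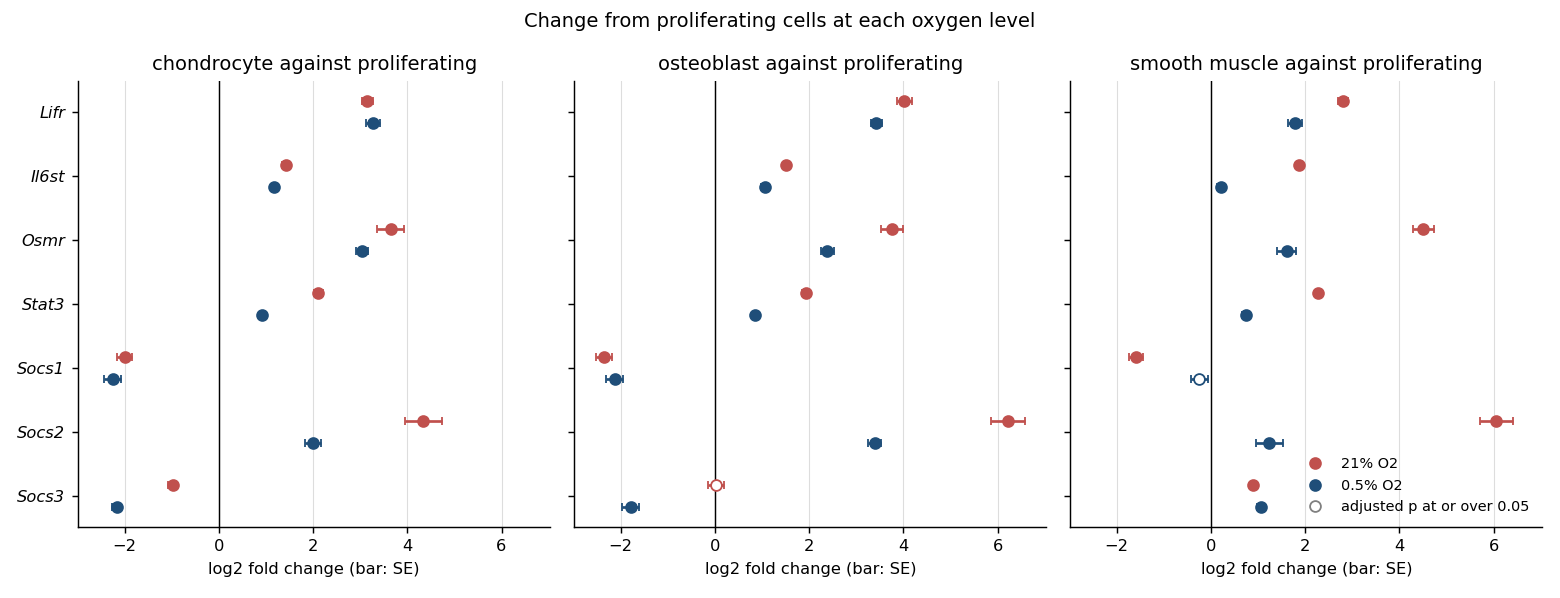
Log2 fold change of each gene from proliferating cells at the same oxygen level, with SE as bars, for chondrocyte, osteoblast and smooth muscle cultures. At 21% O2, Socs2 changed most in each culture (4.34, 6.22 and 6.06), and at 0.5% O2 its values were 1.99, 3.39 and 1.24.

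Lifr encodes the chain that LIF binds (ENSMUSG00000054263, chr15:7090614-7197489 in GRCm38, plus strand). Its levels in the 4 normoxic proliferating libraries were 7.61, 6.02, 7.16 and 8.16 CPM, and 8.39, 6.68 and 8.08 CPM in the 3 hypoxic ones. Normoxic osteoblast libraries held 120.0, 125.4, 126.4 and 77.3 CPM, and normoxic chondrocyte libraries 63.6, 69.3, 61.0 and 49.0 CPM. The proliferating libraries were all low whatever the oxygen, and the fourth osteoblast library lay well under the other 3. Normoxic smooth muscle libraries had 50.0, 50.3, 47.2 and 44.4 CPM, and their hypoxic counterparts 23.0, 27.4 and 23.0 CPM. Hypoxic chondrocyte libraries had 59.4, 85.6 and 81.9 CPM and hypoxic osteoblast libraries 91.8, 84.6 and 73.2 CPM. No differentiated library overlapped a proliferating one.

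Against proliferating cells at 21% O2, Lifr rose by 3.15 ± 0.12 in chondrocyte cultures (log2 ± SE, 8.91-fold, adjusted p = 8.71e-10), by 4.02 ± 0.16 in osteoblast cultures (16.2-fold, adjusted p = 4.47e-08) and by 2.80 ± 0.10 in smooth muscle cultures (6.95-fold, adjusted p = 6.26e-13). At 0.5% O2 the rises were 3.28 ± 0.15, 3.43 ± 0.11 and 1.78 ± 0.15, with adjusted p of 3.42e-08, 7.19e-13 and 1.12e-06. Ordered by mean level, normoxic osteoblast libraries came first, and from there down to normoxic smooth muscle each group overlapped the next. The hypoxic smooth muscle group stood alone below them, overlapping neither neighbour, and the 2 proliferating groups overlapped each other at the bottom.

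Il6st encodes gp130 (ENSMUSG00000021756, chr13:112464070-112510086, plus strand), without which neither LIF nor its relatives can signal. Its libraries ranged from 129.8 to 136.3 CPM in normoxic and 146.2 to 154.3 CPM in hypoxic proliferating cells. In normoxic cultures they ranged from 289.7 to 357.2 CPM (chondrocyte), 321.7 to 388.8 CPM (osteoblast) and 448.2 to 485.8 CPM (smooth muscle). Il6st was the steadiest receptor chain, with a highest group mean 3.53 times its lowest, against 15.5 times for Lifr and 21.1 times for Osmr. At 21% O2 it rose by 1.42 ± 0.07, 1.52 ± 0.07 and 1.87 ± 0.05 in chondrocyte, osteoblast and smooth muscle cultures (adjusted p = 2.85e-09, 3.66e-08 and 6.14e-14). At 0.5% O2 it rose by 1.18 ± 0.06 and 1.06 ± 0.09 in chondrocyte and osteoblast cultures (adjusted p = 1.09e-09 and 3.14e-08). The hypoxic smooth muscle libraries (158.4, 165.8 and 150.6 CPM) overlapped the hypoxic proliferating ones (147.1, 146.2 and 154.3 CPM). Their difference of 0.21 ± 0.08 had an adjusted p of 0.0296. That call was lost without hypoxic proliferating library 1, 2 or 3 (adjusted p = 0.155, 0.16 and 0.0577), without a filter on low counts (0.11, adjusted p = 0.346) and in 1 fit over all 8 groups (0.08, adjusted p = 0.414).

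Osmr, the oncostatin M receptor chain (ENSMUSG00000022146, chr15:6813577-6874969, minus strand), was the scarcest of the 3 receptor RNAs in proliferating cells, per length of exon as well. The normoxic proliferating libraries held 2.82, 2.67, 3.08 and 5.99 CPM and the hypoxic ones 3.97, 3.31 and 4.07 CPM. Normoxic smooth muscle libraries reached 79.8, 79.3, 79.5 and 68.1 CPM, where hypoxic ones had 9.53, 10.7 and 11.7 CPM. The 2 sets of smooth muscle libraries lay far apart, and the hypoxic ones still lay above every proliferating library. Chondrocyte libraries had 28.7, 44.8, 56.3 and 39.0 CPM at 21% O2 and 34.0, 29.8 and 30.4 CPM at 0.5% O2. Osteoblast libraries had 45.9, 48.2, 48.7 and 43.6 CPM at 21% O2 and 21.7, 20.9 and 16.9 CPM at 0.5% O2. So the chondrocyte libraries overlapped between oxygen levels and the osteoblast ones did not. Osmr rose by 3.65 ± 0.29, 3.76 ± 0.23 and 4.51 ± 0.22 in chondrocyte, osteoblast and smooth muscle cultures at 21% O2 (adjusted p = 2.28e-06, 5.03e-07 and 7.11e-08). At 0.5% O2 it rose by 3.04 ± 0.12, 2.39 ± 0.14 and 1.61 ± 0.20 (adjusted p = 8.53e-11, 7.59e-10 and 2.69e-05).

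Osmr and Lifr lie next to each other on chromosome 15, 215.6 kb apart, with no annotated protein-coding gene between them. Of the 5 other protein-coding genes within 500 kb of the pair, a window chosen after the values of the 2 genes had been seen, C9 and Egflam were below the filter. Rictor, a subunit of the mTORC2 kinase complex that lies beside Osmr, changed by -0.31 to 0.24 over the 6 comparisons with proliferating cells. Dab2, an endocytic adaptor, rose in 4 of the 6, by 0.20 to 0.91, and fell by 0.39 in hypoxic smooth muscle libraries. Fyb, an adaptor protein known from T cells, fell in all 6 comparisons. None of these 3 neighbours rose in all 6 comparisons, as both receptor genes did.

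Stat3 (ENSMUSG00000004040, chr11:100885098-100939540, minus strand) encodes the transcription factor through which LIF acts on the nucleus. Normoxic proliferating libraries had 42.0, 42.2, 43.6 and 52.0 CPM, and hypoxic ones 69.1, 68.6 and 75.9 CPM. Every hypoxic library lay above every normoxic one in these cells. Chondrocyte libraries had 153.9, 197.1, 209.2 and 176.2 CPM at 21% O2 and 139.9, 135.2 and 129.0 CPM at 0.5% O2. Osteoblast libraries had 165.9, 165.8, 159.7 and 166.5 CPM at 21% O2 and 126.6, 126.3 and 131.9 CPM at 0.5% O2. Smooth muscle libraries had 229.4, 209.9, 209.4 and 192.9 CPM at 21% O2 and 107.2, 110.2 and 109.8 CPM at 0.5% O2. In each of the 3 differentiated cultures every hypoxic library was below every normoxic one, the reverse of the proliferating cells. The rises from proliferating cells were 2.11 ± 0.10, 1.93 ± 0.08 and 2.28 ± 0.08 at 21% O2 (adjusted p = 5.39e-09, 2.67e-08 and 6.12e-13), or 4.31-, 3.8- and 4.86-fold. At 0.5% O2 they were 0.91 ± 0.06, 0.85 ± 0.07 and 0.74 ± 0.08 (adjusted p = 2.45e-08, 2.69e-08 and 7.36e-06), all under 2-fold.

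Socs1 (ENSMUSG00000038037, chr16:10782240-10785536, minus strand), the inhibitor that acts on JAK kinases, was the only one of the 7 genes that was highest in proliferating cells. Its levels there were 20.4, 22.2, 17.2 and 16.0 CPM at 21% O2 and 16.5, 18.6 and 13.1 CPM at 0.5% O2. Chondrocyte and osteoblast libraries at either oxygen level lay between 2.77 and 5.69 CPM. Normoxic smooth muscle libraries had 5.08, 6.66, 4.87 and 7.81 CPM and hypoxic ones 11.6, 15.1 and 10.8 CPM, the latter overlapping hypoxic proliferating cells. Socs1 fell by 2.00 ± 0.15, 2.36 ± 0.17 and 1.59 ± 0.15 on the log2 scale in chondrocyte, osteoblast and smooth muscle cultures at 21% O2 (adjusted p = 1.13e-07, 8.83e-07 and 9.70e-08). At 0.5% O2 it fell by 2.25 ± 0.18 in chondrocyte and 2.13 ± 0.19 in osteoblast cultures (adjusted p = 1.01e-07 and 6.08e-08). In hypoxic smooth muscle libraries its difference of -0.25 ± 0.18 did not pass the test (adjusted p = 0.253).

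Socs2 (ENSMUSG00000020027, chr10:95385362-95417180, minus strand), the inhibitor tied to growth hormone signalling, had the widest range of the 7. Normoxic proliferating libraries held 0.672, 0.338, 0.298 and 1.40 CPM, from 25, 25, 9 and 40 reads. Hypoxic proliferating libraries held 2.15, 1.94 and 2.23 CPM, from 66, 54 and 65 reads. The groups did not overlap, though the fourth normoxic library came near. Normoxic osteoblast libraries had 45.8, 45.3, 45.5 and 42.3 CPM and normoxic smooth muscle libraries 36.3, 40.4, 41.0 and 37.9 CPM. Hypoxic osteoblast libraries had 20.4, 23.7 and 22.3 CPM and hypoxic smooth muscle libraries 4.58, 4.29 and 4.91 CPM. Chondrocyte libraries lay between those 2 hypoxic groups, at 14.0, 13.6, 11.7 and 8.98 CPM at 21% O2 and 8.73, 8.58 and 7.92 CPM at 0.5% O2. No 2 neighbouring groups overlapped in the order of the 8 group means, which ran from normoxic osteoblast, normoxic smooth muscle, hypoxic osteoblast, normoxic chondrocyte, hypoxic chondrocyte and hypoxic smooth muscle to hypoxic and normoxic proliferating cells. Socs2 rose by 4.34 ± 0.39, 6.22 ± 0.36 and 6.06 ± 0.34 at 21% O2 (20.2-, 74.6- and 66.8-fold, adjusted p = 2.49e-06, 2.07e-07 and 1.68e-08). At 0.5% O2 it rose by 1.99 ± 0.17, 3.39 ± 0.14 and 1.24 ± 0.28 (3.97-, 10.5- and 2.37-fold, adjusted p = 1.74e-07, 7.07e-12 and 0.00204).

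Socs3 (ENSMUSG00000053113, chr11:117966079-117970047, minus strand), the feedback inhibitor of gp130, did not follow the other genes. Normoxic proliferating libraries had 26.3, 26.6, 23.9 and 27.4 CPM and hypoxic ones 41.0, 38.2 and 45.2 CPM. Normoxic smooth muscle libraries had 47.1, 46.5, 42.8 and 50.9 CPM and hypoxic ones 77.3, 82.4 and 79.6 CPM. In both of these cultures all hypoxic libraries were above all normoxic ones. Chondrocyte libraries had 11.1, 11.8, 14.5 and 12.95 CPM at 21% O2 and 8.73, 9.57 and 9.59 CPM at 0.5% O2. Osteoblast libraries had 30.0, 29.1, 27.6 and 16.2 CPM at 21% O2 and 15.1, 13.1 and 7.96 CPM at 0.5% O2. Here the hypoxic libraries were the lower ones, again without overlap. Socs3 fell by 0.98 ± 0.09 in normoxic and by 2.17 ± 0.10 in hypoxic chondrocyte cultures (adjusted p = 1.38e-06 and 4.06e-10) and rose by 0.90 ± 0.07 and 1.06 ± 0.09 in smooth muscle cultures (adjusted p = 9.87e-09 and 1.26e-06). In osteoblast cultures it fell by 1.79 ± 0.18 at 0.5% O2 (adjusted p = 9.94e-07), while at 21% O2 its difference was 0.03 ± 0.17 (adjusted p = 0.865), with libraries that overlapped those of proliferating cells. Without normoxic osteoblast library 4 that difference was 0.16 (adjusted p = 0.048), and without osteoblast library 1, 2 or 3 or proliferating library 3 it lay between -0.08 and -0.01.

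STAT3 and related factors bind the palindrome TTCNNNGAA. RefSeq gene starts in GRCm38.p6 gave windows of 300 bases, from 250 before to 50 after each start, for 6 of the 7 genes. Of those 6 only Socs3 had the palindrome in its window, as did 8.3% of all 32851 windows. Among the 59 other pathway genes described further on, 45 had 1 or more windows (61 windows in all), and 3 of these genes, Cish, Bcl6 and Icam1, held it. Stretches are shown for Socs3 and for Cish, which like it encodes an inhibitor of the SOCS family, and for Icam1, a listed target. The palindrome is in capitals, 5′ to 3′ on the strand of the gene, with 10 bases to either side.
Socs3, chr11:117969502-117969530, minus strand: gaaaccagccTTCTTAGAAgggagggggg
Cish, chr9:107296649-107296677, plus strand: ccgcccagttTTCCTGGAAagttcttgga
Cish, chr9:107296660-107296688, plus strand: tcctggaaagTTCTTGGAAatctgtcaaa
Icam1, chr9:21015888-21015916, plus strand: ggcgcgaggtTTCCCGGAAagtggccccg
The palindrome of Socs3 begins 154 bases before the start and that of Icam1 42 before it, while those of Cish begin at bases 1 and 12 of the transcript, so that their stretches overlap. Bcl6 held 4 matches over its windows. A match describes the letters only. Cish rose by 1.05, 3.25 and 3.35 in the normoxic cultures in which Socs3 changed by -0.98, 0.03 and 0.90, and Icam1, a cell adhesion molecule, was below the filter in all but 1 of the 10 comparisons of 2 groups. The letters ACGTG and GCGTG, the cores bound by hypoxia-inducible factors, were searched on both strands as well. The 6 genes have 7 windows in all. GCGTG was in a window of 3 of the 6 genes (Lifr, Osmr and Stat3), though another Lifr window lacked it, and in 32.4% of all windows. ACGTG was in none of the 6 and in 19.6% of all windows.

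Levels of different genes can be set side by side per kilobase of exon (mean CPM per kb, exon lengths from the GENCODE M21 annotation). In normoxic proliferating cells Il6st came first at 12, followed by Socs3 at 9.01, Socs1 at 6.53, Stat3 at 4.72, Lifr at 0.672, Osmr at 0.301 and Socs2 at 0.071. In normoxic osteoblast cultures the order was Il6st (33.0), Stat3 (17.3), Lifr (10.4), Socs3 (8.89), Socs2 (4.69), Osmr (3.85) and Socs1 (1.22). Il6st was thus the most abundant receptor chain in both, and Lifr RNA went from far below Stat3 to the same order of size. In hypoxic smooth muscle libraries Socs3 came first, at 27.6 against 14.3 for Il6st.

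Low oxygen had opposite signs in proliferating and differentiated cells for Stat3 and Socs2. In proliferating cells, 4 of the 7 genes were higher at 0.5% O2 and none lower, beside 33.1% of all genes higher and 32.3% lower. Il6st rose by 0.23 ± 0.05 (adjusted p = 0.000755), Stat3 by 0.72 ± 0.08 (adjusted p = 3.03e-06), Socs2 by 1.76 ± 0.44 (adjusted p = 0.00342) and Socs3 by 0.73 ± 0.07 (adjusted p = 1.03e-06). Lifr (0.16 ± 0.14, adjusted p = 0.345), Osmr (0.13 ± 0.27, adjusted p = 0.691) and Socs1 (-0.19 ± 0.13, adjusted p = 0.223) did not pass the test. The call of Il6st was lost in 1 fit over all 8 groups (0.17, adjusted p = 0.0905). Without normoxic proliferating library 4, which was the highest of its group for 5 of the 7 genes, Osmr was 0.46 higher (adjusted p = 0.0277) and Socs1 0.27 lower (a log2 value of -0.27, adjusted p = 0.039).

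In chondrocyte cultures the effect of oxygen on these genes was small. None rose and 3 fell, beside 10.4% of all genes higher and 11.8% lower. Stat3 fell by 0.46 ± 0.09 (adjusted p = 0.00446), Socs2 by 0.53 ± 0.16 (adjusted p = 0.0332) and Socs3 by 0.44 ± 0.13 (adjusted p = 0.0257). The call of Stat3 held without each of the 7 libraries in turn, whereas that of Socs2 was lost in 6 of the 7 such fits (adjusted p up to 0.12) and that of Socs3 in 4 (up to 0.0852). For Socs2 these were all but the fit without normoxic library 4, and for Socs3 those without normoxic library 3 or without hypoxic library 1, 2 or 3. Lifr (0.31 ± 0.15), Il6st (0.01 ± 0.08), Osmr (-0.43 ± 0.19) and Socs1 (-0.41 ± 0.21) did not pass, with adjusted p of 0.182, 0.966, 0.163 and 0.188. Lifr passed without hypoxic chondrocyte library 1 (0.46, adjusted p = 0.0227) and Osmr without normoxic chondrocyte library 1 (-0.57, adjusted p = 0.00854). Over all genes, 1482 were higher and 1675 lower, and 2091 were called in all without hypoxic chondrocyte library 3.

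In osteoblast cultures none of the 7 genes rose at 0.5% O2 and 4 fell, beside 27.0% of all genes higher and 27.3% lower. Osmr fell by 1.23 ± 0.10 (2.35-fold, adjusted p = 1.64e-05), Socs3 by 1.09 ± 0.26 (adjusted p = 0.00812), Socs2 by 1.01 ± 0.08 (adjusted p = 1.61e-05) and Stat3 by 0.36 ± 0.07 (adjusted p = 0.0023). Lifr (-0.43 ± 0.17, adjusted p = 0.0546) and Il6st (-0.23 ± 0.11, adjusted p = 0.109) did not pass the test. Both passed in 1 fit over all 8 groups (-0.43 and -0.23, adjusted p = 0.0137 and 0.0188) and with library size alone (-0.58 and -0.39, adjusted p = 0.0141 and 0.0167), which made 6 of the 7 genes lower, and Lifr also with DESeq2 (adjusted p = 0.0382). Without normoxic osteoblast library 4 they were -0.58 (adjusted p = 3.42e-05) and -0.29 (adjusted p = 0.00897), and this was the library in which 5 of the 7 genes were lowest in their group. Socs1 differed by 0.04 ± 0.24 (adjusted p = 0.899). Markers of glucocorticoid response summed to 5521 to 6275 CPM in hypoxic and 2314 to 2931 CPM in normoxic osteoblast libraries, and adipocyte markers to 54.7 to 59.6 against 7.77 to 11.6 CPM, with Adipoq, Plin1 and Cidec below 0.1 CPM in both. Their part in these results was not tested.

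In smooth muscle cultures all 7 genes differed between oxygen levels, 2 higher and 5 lower at 0.5% O2, beside 35.4% of all genes higher and 40.2% lower. The 3 receptor chains fell: Osmr by 2.79 ± 0.11 (6.93-fold, adjusted p = 1.27e-11), Il6st 2.83-fold (SE 0.07 on the log2 scale, adjusted p = 9.91e-11) and Lifr by 0.91 ± 0.11 (1.88-fold, adjusted p = 1.79e-06). Stat3 fell by 0.89 ± 0.08 (adjusted p = 9.10e-08) and Socs2 by 3.02 ± 0.14 (8.11-fold, adjusted p = 2.82e-11). Socs1 rose by 1.09 ± 0.21 (2.13-fold, adjusted p = 0.00024) and Socs3 by 0.83 ± 0.09 (1.78-fold, adjusted p = 5.27e-07). These values rest on the libraries that stood apart in mitochondrial ribosomal RNA and in scaling. With library size alone as the scaling, the median of all genes in this comparison moved from -0.12 to -1.49, Socs1 became -0.28 (adjusted p = 0.223) and Socs3 -0.54 (adjusted p = 5.03e-05), both still above that median, and the 5 lower genes stayed lower (-2.26 to -4.39). Summed leukocyte markers were 33.6 to 37.4 CPM in hypoxic and 1.02 to 1.61 CPM in normoxic smooth muscle libraries, of which Cd68, a lysosomal protein, made 35.0 CPM, while Ptprc, Adgre1 and Cd3e were below 0.1 CPM. Their part in these results was not tested.

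The same scaling bears on the comparison of hypoxic smooth muscle with hypoxic proliferating libraries. With library size alone, the median of all genes there moved from -0.07 to -1.35. Il6st, Stat3, Socs2 and Socs3 turned to -1.07, -0.54, -0.03 and -0.21, all above that median. Lifr and Osmr stayed higher at 0.50 and 0.33, the latter no longer past the threshold (adjusted p = 0.16), and Socs1 was -1.53 (adjusted p = 1.16e-05), just under the median.

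**Figure D3:**
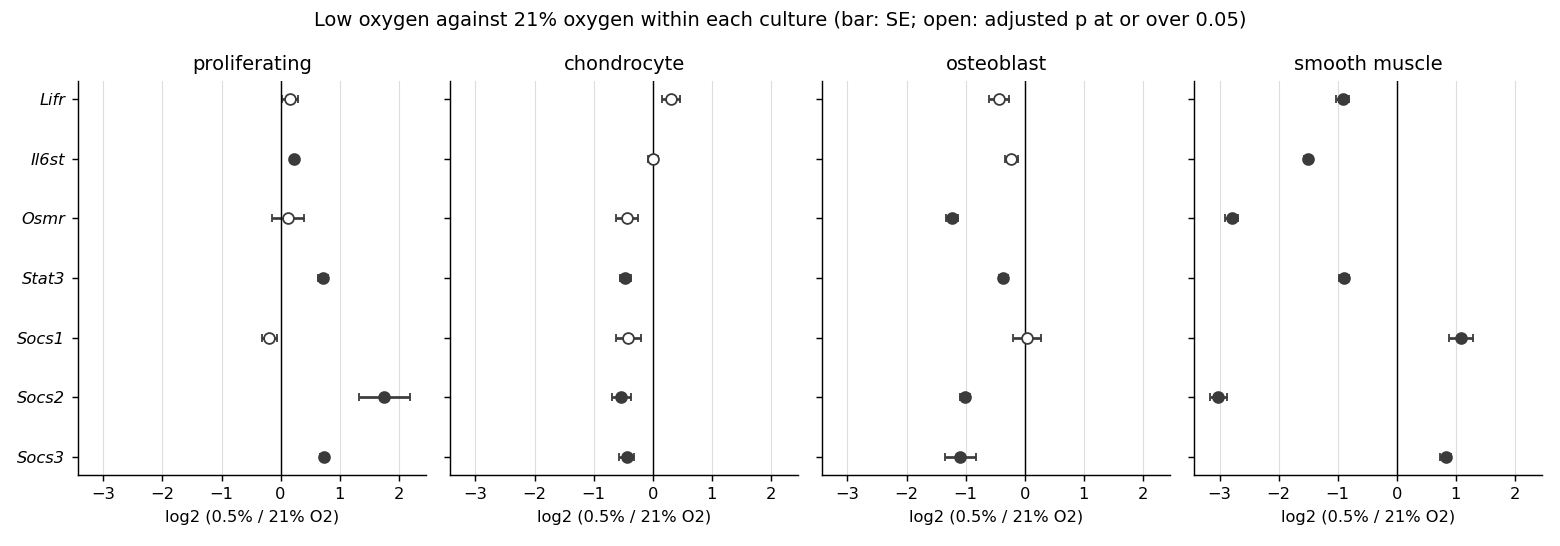
Log2 ratio of 0.5% to 21% O2 for each gene within each culture, with SE as bars and open symbols where the adjusted p was at or over 0.05. Stat3 and Socs2 lie above 0 in proliferating cells (0.72 and 1.76) and below 0 in all 3 differentiated cultures, and the receptor chains lie furthest below 0 in smooth muscle cultures (Osmr -2.79).

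Whether the change on leaving the proliferating state depended on oxygen was tested directly, as the change at 0.5% O2 minus the change at 21% O2 over the 4 groups concerned. In chondrocyte cultures 3 of the 7 genes passed, beside 43.5% of all genes in either direction: Stat3 (-1.17 ± 0.14, adjusted p = 2.79e-06), Socs2 (-2.32 ± 0.46, adjusted p = 0.000679) and Socs3 (-1.16 ± 0.14, adjusted p = 3.01e-06). Lifr (0.16), Il6st (-0.21), Osmr (-0.58) and Socs1 (-0.22) did not, with adjusted p of 0.592, 0.0948, 0.262 and 0.508. Il6st passed without normoxic chondrocyte library 1 (-0.28, adjusted p = 0.00576) and Osmr without normoxic proliferating library 4 (-0.90, adjusted p = 0.0192). Il6st also passed with DESeq2 (adjusted p = 0.0332), with DESeq2's size factors (0.0401), with library size alone (0.0467) and with at least 10 counts in every library (0.038). With the replicate number as a block Osmr passed too (-0.89, adjusted p = 0.0241).

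In osteoblast cultures 5 passed, beside 54.2% of all genes. These were Il6st (-0.41 ± 0.12, adjusted p = 0.00816), Osmr (-1.33 ± 0.30, adjusted p = 0.00177), Stat3 (-1.04 ± 0.11, adjusted p = 1.06e-06), Socs2 (-2.79 ± 0.41, adjusted p = 4.54e-05) and Socs3 (-1.78 ± 0.29, adjusted p = 0.000118). Lifr, at -0.55 ± 0.23 (adjusted p = 0.0532), passed without normoxic osteoblast library 4 (-0.70, adjusted p = 0.000347), normoxic proliferating library 4 (-0.62, adjusted p = 0.0424) or hypoxic proliferating library 2 (-0.63, adjusted p = 0.0414). Lifr also passed with DESeq2 (adjusted p = 0.0364), with DESeq2's size factors (0.0499) and with library size alone (0.0216). The same held with at least 10 counts in every library (0.0303), in 1 fit over all 8 groups (0.0436) and with the replicate block (6.38e-05). In smooth muscle cultures 6 passed, beside 70.4% of all genes: Lifr (-1.03 ± 0.17), Il6st (-1.69 ± 0.08), Osmr (-2.91 ± 0.29), Stat3 (-1.57 ± 0.11), Socs2 (-4.82 ± 0.40) and Socs1 (1.31 ± 0.25), with adjusted p between 8.23e-14 and 6.39e-05. Socs3 differed by 0.15 ± 0.11 (adjusted p = 0.263). With library size alone the median over all genes in this smooth muscle comparison was -1.37, Socs1 was -0.02 and Socs3 -1.19. Stat3 and Socs2 were the genes whose smaller rise at low oxygen passed the test in all 3 cultures. Il6st and Osmr also had negative differences in all 3, but did not pass in chondrocyte cultures. Since all 3 tests use the same proliferating libraries, the tests are not independent.

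The other genes of the pathway were followed in a list of 59: 9 ligands, 4 further receptor chains, 4 JAK kinases, 6 other STATs, 10 other inhibitors and 26 genes known as STAT3 or LIF targets. Since the list was chosen with earlier results of these data known, counts over it are descriptive. Of those tested against proliferating cells, 23 rose and 13 fell of 49 in normoxic chondrocyte, 23 and 16 of 48 in normoxic osteoblast, and 17 and 23 of 46 in normoxic smooth muscle cultures. The shares over all genes were 37.7% and 37.2%, 40.9% and 37.8%, and 40.8% and 38.9%. With library size alone the counts were 20 and 21 of 49, 22 and 18 of 48, and 19 and 22 of 46. At 0.5% O2 the counts were 19 and 20 of 47 (all genes 34.9% and 34.6%), 30 and 15 of 49 (36.2% and 35.1%), and 16 and 21 of 46 (33.8% and 36.2%). With library size alone these were 13 and 24 of 47, 29 and 17 of 49, and 9 and 32 of 46. The median of the list was highest in hypoxic osteoblast cultures, at 0.54 against 0.00 for all genes, and lay between -0.24 and 0.25 in the other 5 comparisons.

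**Figure D4:**
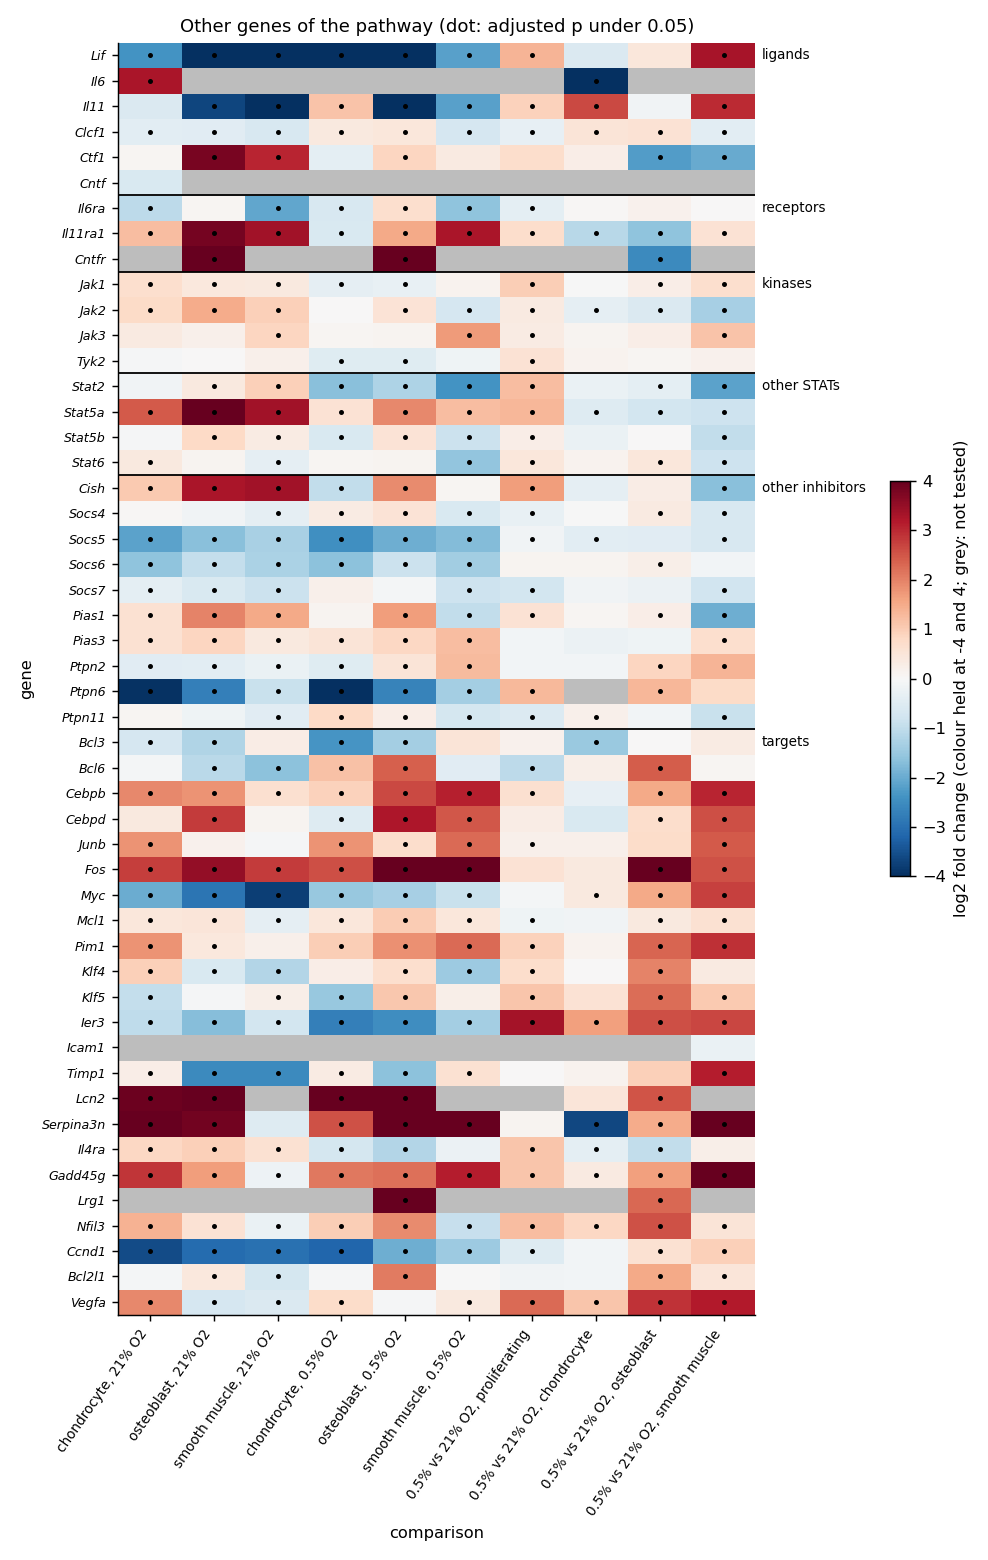
Log2 fold change of the 50 pathway genes drawn, each tested in at least 1 of 10 comparisons, by role (colour held at -4 and 4, dots for an adjusted p under 0.05, grey for not tested). Lif is lower in all 6 comparisons with proliferating cells, and most targets are higher at 0.5% O2 in osteoblast and smooth muscle cultures (18 of 22 and 16 of 21, the latter 11 of 21 with library size alone).

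Among the ligands, the cells' own Lif RNA was highest where LIF was supplied. Its level was 24.5 ± 2.19 CPM in normoxic proliferating cells (SD, n = 4) and 60.8 ± 1.84 CPM in hypoxic ones (SD, n = 3), a rise with low oxygen of 1.37 ± 0.07 (adjusted p = 1.50e-09). It fell in all 6 differentiated cultures, with log2 values of -2.38, -5.58 and -4.18 in normoxic chondrocyte, osteoblast and smooth muscle cultures and -4.36, -6.47 and -2.17 at 0.5% O2. Hypoxic smooth muscle libraries held more of it than normoxic ones (12.3 ± 4.74 against 1.302 ± 0.221 CPM, a log2 difference of 3.31 ± 0.29). Scaling by library size alone shifts log2 values there by -1.37, which is smaller in size than this difference but would reduce it. Il11, a gp130 ligand active in bone, fell in normoxic osteoblast and smooth muscle cultures (-3.66 and -4.31), and in chondrocyte cultures it was 2.65 ± 0.37 higher at 0.5% than at 21% O2. Il6 was tested only in chondrocyte cultures: its mean was 0.219 CPM in normoxic proliferating, 1.95 CPM in normoxic chondrocyte and 0.0876 CPM in hypoxic chondrocyte libraries, with differences of 3.25 from proliferating cells (adjusted p = 2.93e-05) and -4.35 with low oxygen (adjusted p = 0.00185). Ctf1, cardiotrophin 1, was 2.23 ± 0.21 lower in hypoxic than in normoxic osteoblast cultures (a log2 value of -2.23).

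Of the receptor chains outside the 7, Il11ra1, the interleukin-11 receptor, rose by 3.35 ± 0.09 in normoxic smooth muscle cultures. Cntfr, the ciliary neurotrophic factor receptor, had no read in the 4 normoxic proliferating libraries and 543 reads in normoxic osteoblast libraries, which makes it at least 268-fold higher, counting 3 reads over the group as the floor. At 0.5% O2 it was 2.56 ± 0.47 lower than at 21% O2 in osteoblast cultures (a log2 value of -2.56). Among the JAK kinases, Jak1, Jak2 and Tyk2 changed by at most 1.48 in size in the 10 comparisons of 2 groups with composition scaling. Library size alone shifts the median of all genes by -1.37 for oxygen in smooth muscle cultures and by -1.28 for hypoxic smooth muscle against proliferating libraries. The bound need not hold there. Jak1 rose by 0.68, 0.43 and 0.39 and Jak2 by 0.76, 1.48 and 0.96 in normoxic chondrocyte, osteoblast and smooth muscle cultures, while Tyk2 differed by -0.05, 0.01 and 0.20 without passing the test. In proliferating cells all 4 kinases rose at 0.5% O2, beside 33.1% of all genes (3 of 4 with library size alone), Jak1 by 0.99 ± 0.06, and Jak2 fell with low oxygen in the 3 differentiated cultures by 0.36, 0.58 and 1.34.

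The other STAT genes had the same opposite signs with oxygen in proliferating and smooth muscle cultures as Stat3. In proliferating cells 5 of the 5 tested rose at 0.5% O2, beside 33.1% of all genes (median 0.79, 4 of 5 with library size alone). In smooth muscle cultures 5 of 5 fell under either scaling, beside 40.2% of all genes (median -0.98), Stat2, which carries interferon signals, by 2.14 ± 0.12. In the direct test of the oxygen dependence, 5 of 5 were negative and passed in chondrocyte and in smooth muscle cultures, beside 43.5% and 70.4% of all genes in either direction, and 3 of 5 in osteoblast cultures, near the 54.2% of all genes. Stat5a, which carries growth hormone and prolactin signals, rose in all 6 comparisons with proliferating cells, by 3.36 ± 0.14 in normoxic smooth muscle cultures, but with library size alone none of the 5 STATs was higher in hypoxic chondrocyte or hypoxic smooth muscle libraries. Among the other inhibitors Ptpn6, the phosphatase SHP-1, fell by 3.95 ± 0.67 in normoxic and 4.63 ± 0.46 in hypoxic chondrocyte cultures, and Socs7 was 0.73 ± 0.07 lower in hypoxic proliferating cells (a log2 value of -0.73).

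Most target genes of STAT3 and LIF were higher at low oxygen in osteoblast and smooth muscle cultures. The targets were listed with earlier results of these data known, so their counts are descriptive and carry no test. In osteoblast cultures 18 of the 22 tested rose at 0.5% O2 and 1 fell, beside 27.0% and 27.3% of all genes (median 1.59, all genes -0.03). In smooth muscle cultures 16 of 21 rose and none fell, beside 35.4% and 40.2% of all genes (median 2.45, all genes -0.12). With library size alone the smooth muscle counts became 11 higher and 9 lower, with 20 of 21 above the median of all genes. In proliferating cells 10 of 20 rose and 3 fell (all genes 33.1% and 32.3%), and in chondrocyte cultures 5 of 21 rose and 3 fell (all genes 10.4% and 11.8%), which became 4 and 5 with library size alone. In the same hypoxic osteoblast and smooth muscle cultures Stat3 itself was lower.

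These targets also respond to signals other than STAT3. Vegfa, the vascular growth factor, is also on the list of hypoxia markers, and it was higher at 0.5% O2 in proliferating (2.26 ± 0.04) and osteoblast cultures (2.88 ± 0.10). Ier3, an early response gene, rose by 3.34 ± 0.10 in proliferating cells and 1.64 ± 0.08 in chondrocyte cultures. Fos, an immediate early transcription factor, rose with low oxygen by 4.41 ± 0.17 in osteoblast cultures. Serpina3n, a secreted protease inhibitor of the acute phase, was 4.64 ± 0.38 higher at 0.5% O2 in smooth muscle and 3.63 ± 0.77 lower in chondrocyte cultures (a log2 value of -3.63). Gadd45g, a stress response gene, rose by 4.40 ± 0.09 in smooth muscle cultures. Bcl6, a transcriptional repressor, was 1.06 ± 0.10 lower in hypoxic proliferating cells (a log2 value of -1.06). Each of these named smooth muscle rises is larger than the shift of 1.37 that scaling by library size alone makes there (a log2 value of -1.37).

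Against proliferating cells, 13 of 21 targets rose and 5 fell in normoxic chondrocyte cultures (all genes 37.7% and 37.2%), 11 and 8 of 21 in osteoblast cultures (40.9% and 37.8%), and 4 and 11 of 20 in smooth muscle cultures (40.8% and 38.9%). At 0.5% O2 the counts were 12 and 7 of 21 (34.9% and 34.6%), 15 and 6 of 22 (36.2% and 35.1%), and 10 and 5 of 20 (33.8% and 36.2%). The last became 7 and 12 of 20 with library size alone. Serpina3n rose by 6.34 ± 0.65 and Ccnd1, cyclin D1, fell by 3.57 ± 0.20 in normoxic chondrocyte cultures. Lcn2, an iron-scavenging acute phase protein, rose by 7.15 ± 0.43 in normoxic osteoblast cultures. At 0.5% O2 Lcn2 had 5693 reads in osteoblast and 3 in proliferating libraries, a ratio of 2000 (95% counting interval 684 to 9690), and 152 reads in chondrocyte libraries, a ratio of 51.2 (17.5 to 248). Lrg1, a secreted glycoprotein of the acute phase, had 75 reads in hypoxic osteoblast and none in hypoxic proliferating libraries, at least 26.3-fold higher with 3 reads over the group as the floor. These intervals cover counting error only. Junb, a transcription factor of the AP-1 family, rose by 1.81 in normoxic and 1.80 in hypoxic chondrocyte cultures, Cebpd by 2.80 and 3.22 in osteoblast cultures, and Bcl3 fell by 0.67 and 2.35 in chondrocyte cultures. Hypoxic smooth muscle libraries had Fos 4.84 ± 0.42 and Serpina3n 4.08 ± 0.39 above hypoxic proliferating ones.

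Over the 28 libraries, the log2 levels of Il6st and Osmr had a Pearson r of 0.96, as did Osmr and Stat3, and Socs2 had r of 0.89 to 0.92 with the receptor chains and Stat3. Socs1 ran against Lifr (r = -0.94), and Socs3 was close to none of the rising genes (r between -0.43 and -0.14). Of 11647 other genes, those most like each gene were Ano10 (r = 0.983) and Trnp1 (0.978) for Lifr, Sorcs2 (0.976) and Dirc2 (0.963) for Il6st, and Sorcs2 (0.956) and Pdgfrl (0.952) for Osmr. For Stat3 they were Lama4 (0.970) and Dcaf6 (0.959), and for Socs1 Anxa10 (0.953) and Fhl3 (0.951). For Socs2 they were Rnase4 (0.975) and Adamtsl1 (0.972), and for Socs3 Abca3 (0.965) and Zfp219 (0.959). These values describe 28 libraries in 8 groups that share their scaling and carry no test.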

How the data were processed

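Polyadenylated RNA of 28 O9-1 libraries was sequenced after preparation with a stranded kit. Read counts per gene were deposited by the authors, who used HISAT2 2.0.5, StringTie 1.3.3b and featureCounts 1.5.0-p3 with the mm10 genome, per the submitters' processing notes; whether counting used strand is not given in the sources used here, so overlapping antisense genes cannot be told apart. Symbols came from the deposited tables for 20019 genes and from the reference annotation for 34311, and 99 had none. Log2 fold changes in the authors' deposited tables had the sign found here in 70 of 70 values of the 7 genes, and differed by at most 0.24.

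Each pair of groups was fitted with edgeR 4.0.16 in R 4.3.3 (TMM scaling, filterByExpr with a minimum count of 10, robust quasi-likelihood test), and the dependence on oxygen was fitted over 4 groups. P-values were adjusted over all genes tested by the Benjamini-Hochberg method. The tests scale within the groups compared, the levels over all libraries. The procedure was tested on simulated data. Alternatives were limma 3.58.1 (voom), DESeq2 1.42.0, other scalings and filters, 1 fit over all groups, a replicate block and leaving out each library. Replicates of a group differed by more than sampling noise (chi-square per degree of freedom at least 2.89), so none was counted as a duplicate. Among normoxic osteoblast libraries 1 to 3 the value was 2.89 to 3.88, but 91.1 to 97.05 against library 4. Library 4 also stood apart in normoxic proliferating (18.3 to 22.3, others 5.18 to 5.83) and smooth muscle cultures (14 to 20.2, others 6.1 to 7.935). No hypoxic group had a library 4. Whether libraries 1 to 3 were separate cultures is not stated. Replicate numbers did not pair samples: deviations of same-numbered libraries correlated between -0.0566 and 0.0814 over 33 pairs.

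Besides the 7 genes, Lif, Il6, Jak1, Jak2, Tyk2, Bcl3, Junb and Cebpd were named, as were, in each comparison of 2 groups, the 2 pathway genes that rose most and the 2 that fell most among those called, without overlap and with a mean of at least 10 counts in a group. Some genes this rule names are not reported here. Other pathway genes named were chosen after their values were seen. The genes most like each of the 7 were the 2 of highest Pearson r. Members and lists were chosen with earlier results of these data known.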

Additional observations from a re-analysis of the deposited data

Results flagged for a closer look

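In 7 of the 28 normoxic groups of values tested, 1 library was flagged as an outlier against the other 3 of its group. Independent tests would give about 1 in 20 by chance, but these share the same libraries and are not independent. Some gaps were small, as for Stat3 in normoxic osteoblast libraries (159.7 against 165.8 to 166.5 CPM). Lifr was low in normoxic osteoblast library 4 (77.3 CPM), as was Socs2 (42.3 CPM), and Stat3 was low in normoxic osteoblast library 3 (159.7 CPM). Il6st was low in normoxic chondrocyte library 1 (289.7 CPM) and Osmr in normoxic smooth muscle library 4 (68.1 CPM). Osmr (5.99 CPM) and Stat3 (52.0 CPM) were high in normoxic proliferating library 4.

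The change from proliferating cells differed between oxygen levels in 14 of 21 tests: 3, 5 and 6 of 7 genes in chondrocyte, osteoblast and smooth muscle cultures, beside 43.5%, 54.2% and 70.4% of all genes. In chondrocyte cultures the difference was -1.17 for Stat3, -2.32 for Socs2 and -1.16 for Socs3. Osteoblast cultures gave -0.41 for Il6st, -1.33 for Osmr, -1.04 for Stat3, -2.79 for Socs2 and -1.78 for Socs3. Smooth muscle cultures gave -1.03 for Lifr, -1.69 for Il6st, -2.91 for Osmr, -1.57 for Stat3, 1.31 for Socs1 and -4.82 for Socs2.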

How the results depend on the processing

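Of 91 values, 90 kept direction and side of the threshold with limma-voom, 88 with DESeq2, 89 with DESeq2's size factors, 90 without a filter, and 91 with scaling that left out mitochondrial genes. The number was 83 in 1 fit over all 8 groups, 82 with the replicate block and 74 with library size alone. With at least 10 counts in every library 84 were compared, without the 7 of Socs2 that use normoxic proliferating cells: 82 kept both and 2 newly passed the threshold. Scaling by library size alone turned Socs3 in normoxic osteoblast cultures (-0.12), Il6st, Stat3, Socs2 and Socs3 in hypoxic smooth muscle against proliferating libraries (-1.07, -0.54, -0.03 and -0.21), and the oxygen differences of Il6st in chondrocyte (-0.07), Socs1 in osteoblast (-0.12), and Socs1 and Socs3 in smooth muscle cultures (-0.28 and -0.54). It also turned the smooth muscle oxygen dependence of Socs1 (-0.02) and Socs3 (-1.19). The cause was not tested.

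Higher calls as a share of all calls moved with that scaling from 50.3 to 34.7% and from 50.2 to 31.8% in chondrocyte cultures at 21% and 0.5% O2, from 50.8 to 38.2% in hypoxic osteoblast and from 48.3 to 15% in hypoxic smooth muscle cultures, all against proliferating cells. For low against high oxygen it moved from 46.9 to 31.8% (chondrocyte), 49.6 to 36.9% (osteoblast) and 46.8 to 15.6% (smooth muscle), and for the smooth muscle oxygen dependence from 49.6 to 16.6%. In the other 5 comparisons it moved by under 10 percentage points, upward only in normoxic smooth muscle cultures (51.2 to 54.6%).

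Socs3 in normoxic osteoblast cultures was -0.01 with limma-voom, -0.02 in 1 fit over all 8 groups, and -0.08 to 0.16 with a library left out. Leaving out a library gave ranges of -0.02 to 0.46 for Osmr with oxygen in proliferating cells, -0.06 to 0.04 for Il6st in chondrocyte and -0.18 to 0.19 for Socs1 in osteoblast cultures. Of the 7 genes, 3 were called with oxygen in chondrocyte cultures, 1 in the fit over all groups, and 1 to 3 with a library left out. The numbers do not pair the libraries, and the replicate block, which also leaves out the fourth normoxic libraries, moved Lifr in the chondrocyte oxygen dependence to -0.01, brought 7 values past the threshold and took out 1 (Socs3 with oxygen in chondrocyte cultures, adjusted p = 0.0556). Socs2 in normoxic proliferating cells rests on 9 to 40 reads a library, which limits its fold changes.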
